A study of Mus musculus with 18 samples.

Results

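The genes described here encode 48 subunits of BAF, INO80, TIP60 and SRCAP, the mammalian chromatin complexes that hold the actin-related protein Arp4 or monomeric nuclear actin. They were taken by name from a table of 54347 mouse genes, with earlier results of these data known. BAF subunits make up 23 of them, INO80 subunits 7, TIP60 subunits 10 and SRCAP subunits 3, and 5 belong to more than 1 complex. Arp4 itself, the product of Actl6a, and β-actin were kept apart, the first because it is the target of the siRNA.

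All 4 complexes use the energy of ATP to move, evict or exchange nucleosomes. BAF slides and ejects nucleosomes at enhancers and promoters with Smarca4 (BRG1) or Smarca2 (BRM) as its motor, INO80 repositions nucleosomes, SRCAP deposits the histone variant H2A.Z, and TIP60 joins that exchange to histone acetylation. In BAF, INO80, TIP60 and SRCAP alike, Arp4 and an actin monomer sit as a pair on the helicase-SANT-associated region of the motor protein, and INO80 and SRCAP carry further nuclear actin-related proteins (Arp5, Arp8 and Arp6). Several BAF positions are filled by 1 of a set of paralogues, so the mixture of transcripts bears on which versions of the complex a cell can build.

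RNA-seq was performed on marrow-derived mesenchymal stem cells (MSC), a primary line that the laboratory made from marrow of male C57BL/6J mice, in 6 groups of 3 libraries. In the first experiment cells received nothing (control), CK666, which inhibits the branching of actin filaments by Arp2/3, or cytochalasin D (CytoD), which caps filaments in the cytoplasm and raises nuclear actin. All cells of the second experiment were transfected. They received a control siRNA (siControl), the siRNA that targets Arp4 (siArp4), or the latter followed by CK666 (siArp4+CK666). Treatment lasted a day. Control siRNA with CK666 was not analysed here, so no library shows CK666 in transfected cells that keep Arp4. Values are normalized counts, that is, estimated read counts divided by the size factor of the library, and each experiment was scaled on its own unless stated.

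Library totals ran from 18075610 to 24733212 counts, and the 48 genes took 0.261% to 0.334% of them. Of 10 stromal markers 8 had a mean of at least 10 in control cells, with a summed level of 352770 to 362710, which was 219610 to 247490 in CK666, 286010 to 315930 in CytoD, 194310 to 222890 in siControl, 282420 to 303800 in siArp4 and 137450 to 148180 in siArp4+CK666. The 8 hematopoietic markers, 5 of them at 0 in control, summed to 107 to 171 in control, 133 to 196 in CK666, 263 to 273 in CytoD, 80.5 to 250.2 in siControl, 74.95 to 112 in siArp4 and 62.0 to 291 in siArp4+CK666, and 2 of the 3 tested rose with CytoD. Sums were at most 25.8 for 4 endothelial and 10.1 for 3 erythroid markers. Mitochondrial genes took 1.36% to 1.89% of counts in untransfected, 1.30% to 2.66% in siControl and 2.67% to 3.36% in knockdown libraries. Summed over 12 proliferation genes, levels were 56910 to 58300 in control, 23657 to 26369 in CK666, 25973 to 26519 in CytoD, 22020 to 26095 in siControl, 10258 to 11186 in siArp4 and 4800.5 to 5565 in siArp4+CK666. All 12 were lower with CK666, CytoD and siArp4+CK666 than in the respective control, and 10 of 12 with siArp4 (adjusted p below 0.01). The part that these shifts in stromal, hematopoietic, mitochondrial and proliferation genes have in the subunit values was not tested, and fewer cells of a kind and less RNA per cell cannot be told apart in bulk libraries.

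Some libraries deviated with gene length. Between genes in the top and the bottom quartile of exon length, the median deviation of a library from the mean of its experiment differed by -0.63 (log2) in CK666 replicate 1, 0.53 in siControl replicate 1, -1.05 in siControl replicate 2, -0.39 in siControl replicate 3 and 0.66 in siArp4+CK666 replicate 1. In the other 13 libraries it lay between -0.15 and 0.28. The subunit genes themselves shifted by -0.94, 0.59, -1.01, -0.56 and 0.97 in those 5 libraries. Long transcripts such as Srcap, Ep400 and Arid1b were therefore read beside this trend, and so were short ones such as Ino80b, Vps72 and Yeats4.

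**Figure D1:**
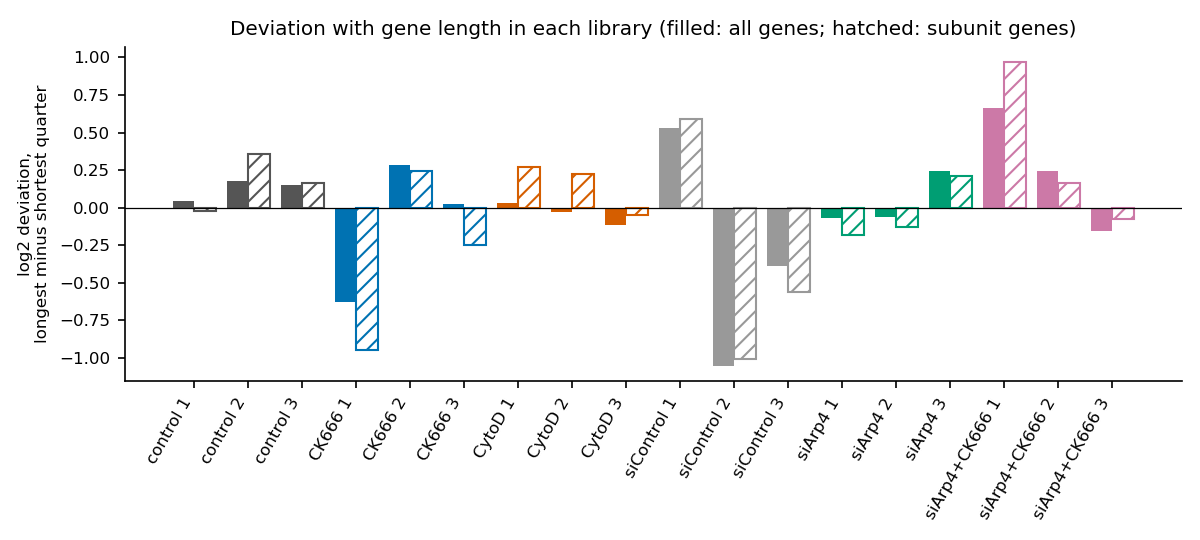
Bars give, for each of the 18 libraries (horizontal axis), the median log2 deviation from the mean of its experiment in the top quartile of exon length minus that in the bottom quartile, filled for all genes with a mean of at least 50 and hatched for the 46 subunit genes at that level. CK666 replicate 1 (-0.63) and siControl replicate 2 (-1.05) reach furthest down, and siArp4+CK666 replicate 1 (0.66) furthest up.

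Exon length here counts every annotated exon base of a gene, whichever transcripts the cells make. Levels per kilobase of exon therefore compare different genes only roughly. By this measure Ruvbl1 was the most abundant subunit in control cells, at 697 normalized counts per kb. Smarca4 at 659, Morf4l1 at 608, Yeats4 at 592 and Smarcc2 at 571 came next. Smarca4 stood above its paralogue Smarca2, at 73. Before division by 6475 and 14269 exon bases, their mean normalized counts were 4269.5 and 1041.5. Kat5 was at 195 per kb, Ep400 at 168, Ino80 at 131 and Srcap at 116. Scarce transcripts were Dpf1, the neuronal form of the PHD-finger subunit, at 7.94 per kb, and Bcl7a, an accessory subunit, at 21.1. Dpf3, the muscle and neuronal form, had no count in 17 libraries and a normalized count of 2.11 in siArp4+CK666 replicate 3, so 47 genes could be followed.

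Promoter sequence is shown for 5 examples among the subunits that passed a comparison described in the following paragraphs and whose window held a motif searched. They are Smarca4, Smarcc1, Ruvbl1 and Ruvbl2, lower in treated untransfected cells, and Smarcd1, higher after knockdown. Others that met this condition are not shown. Yeats4, Dpf2 and Mrgbp were higher with CK666, and Actr6 was higher after knockdown. Ino80e was lower with CytoD, and Dpf1 was lower in siArp4+CK666. The RefSeq table of promoter windows (build GRCm38.p6, 250 bases before and 50 after a start site) held 37 of the 48 genes. Capitals mark the letters GCATGCGC, which nuclear respiratory factor 1 (NRF1) prefers, or their reverse complement in Smarca4 and Smarcc1, the E2F letters TTTCCCGC in Smarcd1, and CCAAT in Ruvbl1 and Ruvbl2.
Smarca4, chr9:21615919-21616168, plus strand: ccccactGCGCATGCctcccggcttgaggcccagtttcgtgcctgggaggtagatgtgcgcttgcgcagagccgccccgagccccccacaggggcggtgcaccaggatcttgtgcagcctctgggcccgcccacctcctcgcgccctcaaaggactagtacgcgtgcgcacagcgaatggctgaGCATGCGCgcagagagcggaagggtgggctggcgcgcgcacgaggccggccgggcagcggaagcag
Smarcc1, chr9:110131774-110131979, plus strand: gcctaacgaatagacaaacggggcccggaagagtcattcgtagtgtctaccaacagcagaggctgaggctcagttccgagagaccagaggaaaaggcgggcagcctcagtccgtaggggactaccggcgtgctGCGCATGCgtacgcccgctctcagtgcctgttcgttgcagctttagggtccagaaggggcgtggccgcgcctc
Ruvbl1, chr6:88465159-88465408, plus strand: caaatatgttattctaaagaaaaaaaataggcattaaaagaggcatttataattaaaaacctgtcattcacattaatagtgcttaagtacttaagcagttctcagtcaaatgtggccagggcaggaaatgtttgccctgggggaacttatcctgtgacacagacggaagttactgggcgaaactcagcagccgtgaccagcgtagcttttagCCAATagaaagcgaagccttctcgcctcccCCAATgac
Smarcd1, chr15:99702146-99702173, plus strand: tcagcacgccTTTCCCGCtagtcgcccc
Ruvbl2, chr7:45434613-45434637, minus strand: agctgtaggcCCAATttggtgagga

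The stretches of Smarca4 and Ruvbl1 lie just before the gene and that of Smarcc1 before a RefSeq start inside the gene as GENCODE bounds it, all 3 outside annotated exons. The Ruvbl2 window likewise belongs to a start inside the GENCODE gene. Those of Smarcd1 and Ruvbl2 are cut to 10 bases on each side of the match, because the match falls in an annotated exon. Searched on both strands, GCATGCGC stood in the windows of 4 of the 37 genes (10.8%), namely Smarca4, Smarcb1, Smarcc1 and Yeats4, and in 2.71% of all 32851 windows. E2F letters (TTTCCCGC or TTTGGCGC) stood in 4 of 37 (Arid1a, Brd7, Ing3 and Smarcd1) and in 1.56% of all windows. CCAAT was found in 14 of 37 (37.8%) and in 37.4% of all windows. The 14 were Actr6, Dpf1, Dpf2, Dpf3, Ing3, Ino80, Ino80e, Kat5, Mbtd1, Morf4l1, Mrgbp, Ruvbl1, Ruvbl2 and Yeats4. The ATF4 letters TGATGNAA stood in 0 of 37 and 3.97% of all. Shares of the 37 count a gene once where any of its windows matched. Shares of all windows count each window singly, so the 2 kinds of share are not alike. A match is a description of the letters only.

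After CK666, 7 of the 47 subunit transcripts rose and 1 fell (adjusted p below 0.01, DESeq2 Wald test, with log2 changes given ± SE), while 15.3% of the 14597 genes tested rose and 14.7% fell. Both directions together came to 17.0% of the subunits against 30.0% of all genes. The rises were spread over BAF (Dpf2, Phf10, Bcl7a), INO80 (Ino80b), TIP60 (Mrgbp) and the TIP60 and SRCAP pair Vps72 and Yeats4, and the fall was that of the BAF motor Smarca4. None of the 8 reached a 2-fold change, the further condition that the study set for its own calls and that 11.0% of all genes met. The median log2 fold change was 0.05 over the subunits and 0.01 over all genes tested. Without control replicate 2 the count of 8 became 5. Over all genes 1688 then rose and 1699 fell of 14382 tested, beside 2230 and 2151 of 14597 with no library left out.

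Smarca4 (ENSMUSG00000032187.16, chr9:21616169-21704230, plus strand) encodes BRG1, the main motor of BAF. Its normalized counts were 4144, 4364 and 4301 in control cells, 2158, 2792 and 2946 in CK666 and 3294, 3125 and 3236 in CytoD. Every treated library lay below every control library, CK666 replicate 1 lowest. The fall came to 1.62-fold with CK666 (log2 change -0.70 ± 0.12, adjusted p = 1.84e-07) and 1.33-fold with CytoD (log2 change -0.41 ± 0.12, adjusted p = 0.00395). With CK666 it passed in all 17 alternative analyses, whereas with CytoD it passed in 8 of 17.

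Among BAF subunits that rose with CK666, Dpf2, the PHD-finger subunit of canonical BAF, was at 1663, 1565 and 1458 in control and 1994, 3511 and 3032 in CK666 (log2 change 0.87 ± 0.19, adjusted p = 3.3e-05). Phf10, the PHD-finger subunit of the polybromo form PBAF, was at 2326, 2203 and 2297 in control, 3176, 3033 and 2947 in CK666 and 1741, 1636 and 1621 in CytoD. The 3 groups of Phf10 did not overlap, with CK666 above control (log2 change 0.42 ± 0.08, adjusted p = 1.35e-06) and CytoD below it (log2 change -0.45 ± 0.08, adjusted p = 3.89e-07). Phf10 shares 9.56% of its exon bases with 1600012H06Rik on the other strand, and the libraries do not tell strands apart. In a fit over all 18 libraries neither difference of Phf10 passed (adjusted p = 0.282 and 0.232). Bcl7a was at 219, 186 and 197 in control and 281, 348 and 307 in CK666, with no overlap (log2 change 0.64 ± 0.17, adjusted p = 0.000903), and it lost the call when 1 of 4 libraries was left out (control replicate 2 or 3, CK666 replicate 2 or 3), at adjusted p between 0.0129 and 0.018.

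Vps72 (YL1), which binds H2A.Z in SRCAP and TIP60, was at 464, 456 and 499 in control and 1047, 709 and 847 in CK666 (log2 change 0.88 ± 0.17, adjusted p = 3.59e-06). Ino80b, an INO80 subunit, was at 274, 289 and 307 in control and 805, 417 and 501 in CK666 (log2 change 0.99 ± 0.23, adjusted p = 9.08e-05). Yeats4 (GAS41), a reader of acetylated lysine, was at 839.6, 751 and 921 in control and 1664, 1115 and 1187 in CK666 (log2 change 0.66 ± 0.17, adjusted p = 0.000712). In these 3 short transcripts CK666 replicate 1 was the highest library, yet replicates 2 and 3 also lay above all control libraries. With the length trend removed the log2 fold changes were 0.83, 0.80 and 0.49, all passing. Ino80b and Yeats4 did not pass in the fit over 18 libraries (adjusted p = 0.0554 and 0.0858), and Yeats4 did not without control replicate 2 (adjusted p = 0.014). Mrgbp, the MRG-binding subunit of TIP60, was at 258, 204 and 209 in control and 392, 306 and 322 in CK666 (log2 change 0.60 ± 0.18, adjusted p = 0.00337); with the replicate number as a block its adjusted p was 0.0123, and it passed in 9 of 17 alternatives.

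With CytoD 1 subunit was higher and 7 were lower, where 13.6% of 13717 genes tested rose and 16.0% fell (17.0% of subunits and 29.6% of genes in either direction). Whether this balance differs from that of all genes, or from that with CK666, was not tested. The falls took in both ATPases shared by INO80, TIP60 and SRCAP (Ruvbl1 and Ruvbl2), Ino80e of INO80, and Smarca4, Smarcc1, Phf10 and Ss18 of BAF. Smarca2, the alternative BAF motor, rose. The subunits had a median log2 fold change of -0.09 and all genes one of 0.01. Without CK666 replicate 1, which enters the estimate of spread, 13 subunits passed, the 8 among them. Over all genes 2462 then rose and 2915 fell of 14004 tested, beside 1871 and 2196 of 13717 with no library left out. Both treatments are set against the same control libraries.

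Ruvbl1 (ENSMUSG00000030079.15, chr6:88465409-88497572, plus strand) and Ruvbl2 (ENSMUSG00000003868.14, chr7:45421760-45438096, minus strand) encode the AAA+ ATPases that together form the ring on which these complexes are assembled. Ruvbl1 was at 1367, 1320.4 and 1285 in control, 1658, 1111 and 1339 in CK666 and 774, 755 and 813 in CytoD. Ruvbl2 was at 1554, 1394 and 1578 in control, 2169, 1539 and 1666 in CK666 and 707, 719 and 733 in CytoD. In both genes the CytoD libraries lay within a narrow band below all others, and CK666 overlapped control. Ruvbl1 fell 1.7-fold (log2 change -0.76 ± 0.15, adjusted p = 2.36e-06). Ruvbl2 fell 2.1-fold (log2 change -1.07 ± 0.14, adjusted p = 2.05e-12) and was the single subunit past 2-fold with CytoD, where 9.12% of all genes were. Both passed in all 17 alternatives. Ruvbl2 shares 10.7% of its exon bases with Gys1 on the other strand.

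Smarca2 (ENSMUSG00000024921.17, chr19:26605050-26778322, plus strand), coding for BRM, was at 970.2, 1128 and 1027 in control, 1167, 1166 and 1204 in CK666 and 1911, 1969 and 1782 in CytoD. CytoD libraries stood well above the other 6, a rise of 1.81-fold (log2 change 0.86 ± 0.10, adjusted p = 8.43e-17) that passed in all 17 alternatives. CK666 libraries lay just above control ones, and that difference did not pass (log2 change 0.18 ± 0.10, adjusted p = 0.145).

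Smarcc1 (BAF155), a scaffold subunit of BAF, was at 2838, 3093 and 2917 in control and 2012, 1871 and 1945 in CytoD (log2 change -0.60 ± 0.15, adjusted p = 0.000368). Its paralogue Smarcc2 (BAF170) was at 2930.0, 3209.6 and 3374 in control and 4175, 3879 and 3802 in CytoD, all CytoD libraries above control, and did not pass (log2 change 0.32 ± 0.18, adjusted p = 0.164). Leaving out CK666 replicate 1, which shares the estimate of spread, brought the adjusted p of Smarcc2 to 9.33e-05. Ino80e was at 1034, 1025 and 1042 in control, 1285, 1014 and 1214 in CK666 and 556, 639 and 689 in CytoD, lower in CytoD than in any other library (log2 change -0.72 ± 0.13, adjusted p = 4.33e-07). Ss18, a subunit of BAF and of its non-canonical form, was at 1987, 1859 and 1990.1 in control and 1485, 1452 and 1513 in CytoD (log2 change -0.39 ± 0.10, adjusted p = 0.000436). The fall of Ss18 passed in 13 of 17 alternatives, and the log2 change over all 17 ran from -0.43 to -0.30. It was lost without the length trend (adjusted p = 0.0932) and without control replicate 1 (0.0124), control replicate 3 (0.0116) or CytoD replicate 2 (0.0126).

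**Figure D2:**
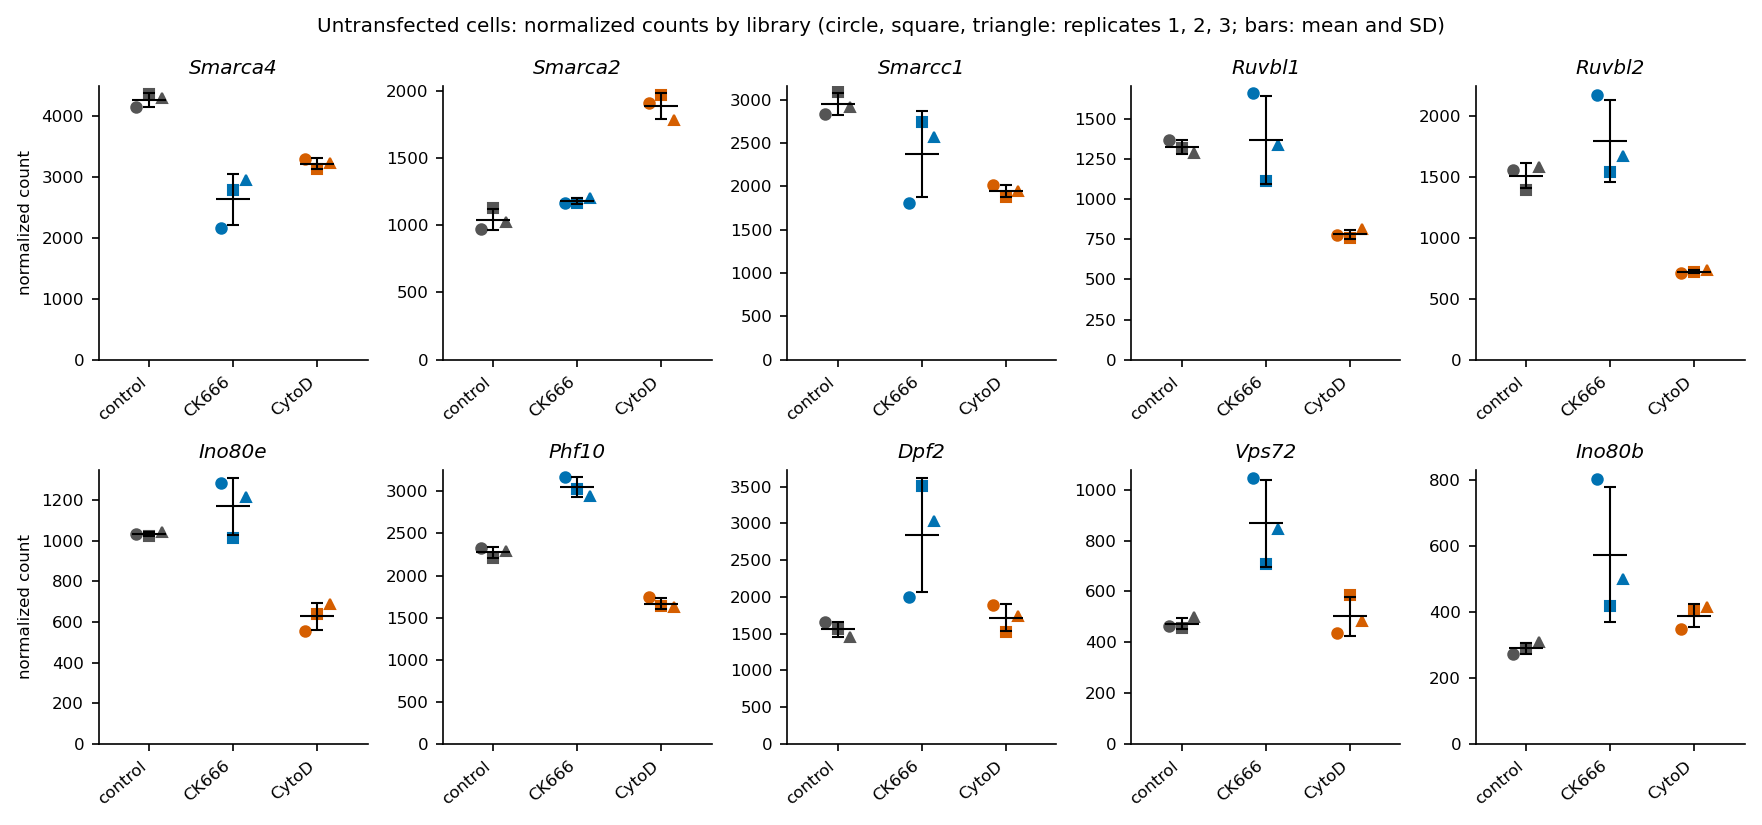
Normalized counts (vertical axes, from 0) of 10 subunit genes in the 9 untransfected libraries, with the mean and SD of each group as bars. CytoD libraries are lowest for Ruvbl1, Ruvbl2, Ino80e and Phf10 and highest for Smarca2, and control libraries are highest for Smarca4.

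Set directly against CytoD, CK666 left 9 subunits higher and 2 lower, while 16.9% of 15038 genes were higher and 14.9% lower (23.4% of subunits and 31.8% of genes in either direction). The 5 largest differences were those of Ruvbl2 (log2 change 1.32 ± 0.14, adjusted p = 1.23e-18), Ino80e (0.90), Bcl7a (0.87), Phf10 (0.87) and Ruvbl1 (0.81), and these 5 passed in all 17 alternatives. Vps72 (0.79), Dpf2 (0.73), Mrgbp (0.72) and Yeats4 (0.68) were also higher with CK666, and Smarca2 (-0.68) and Smarcc2 (-0.68) were higher with CytoD. Of the 5 shared subunits 4 were higher with CK666, Dmap1 being the exception (log2 change -0.01 ± 0.16, adjusted p = 0.971). Without CK666 replicate 1 the count of 11 became 19, all 11 among them. Over all genes 2867 were then higher and 2595 lower of 14004 tested, beside 2542 and 2237 of 15038 with no library left out.

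The siRNA target was read first. Actl6a was at 720.1, 1127 and 841 in siControl, 48.8, 57.2 and 19 in siArp4 alone and 9.52, 22.9 and 17.9 with CK666 added, so every library matched its label. Knockdown came to 21.5-fold alone (log2 change -4.42 ± 0.41, adjusted p = 2.59e-25) and 53.1-fold with CK666 (log2 change -5.73 ± 0.44, adjusted p = 6.33e-37). In untransfected cells Actl6a was at 964, 944 and 884 in control and 569.6, 622 and 618 in CytoD (log2 change -0.62 ± 0.13, adjusted p = 4.52e-06), lower in every CytoD library. CK666 libraries, at 951, 749 and 908, overlapped control (log2 change -0.10 ± 0.12, adjusted p = 0.572). Actl6a shares 11.6% of its exon bases with Mrpl47 on the other strand.

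With Arp4 depleted, 3 subunit transcripts rose (Smarcd1, Actr6 and Epc1) and 3 fell (Ss18, Smarca2 and Smarcd2), 12.8% of the 47 against 25.1% of the 15415 genes tested. Over all genes 11.9% rose and 13.1% fell. Smarcd1 and Ss18 changed by more than 2-fold, as did 16.2% of all genes. BAF held 4 of the 6 (of its 22 tested subunits), TIP60 held Epc1 and SRCAP held Actr6. The 41 other subunits ranged in log2 fold change from -1.28 (Dpf1) to 0.54 (Ing3), and the median of all 47 was -0.09 beside -0.05 for all genes.

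Smarcd1 (ENSMUSG00000023018.5, chr15:99702129-99713991, plus strand), Smarcd2 and Smarcd3 encode BAF60A, BAF60B and BAF60C, alternative core subunits that link BAF to transcription factors. Smarcd1 was at 256, 363 and 295 in siControl, 1133, 1128 and 1035 in siArp4 alone and 1146, 1206 and 1256 with CK666 added. Smarcd2 (ENSMUSG00000078619.10, chr11:106263179-106272972, minus strand) was at 1578, 2056 and 1803 in siControl, 995, 1039.9 and 956 in siArp4 alone and 927, 1081 and 1042 with CK666 added. Both knockdown groups lay wholly above siControl for Smarcd1 and wholly below it for Smarcd2. Against siControl, Smarcd1 was 3.62-fold higher in siArp4 (log2 change 1.86 ± 0.17, adjusted p = 2.98e-25) and 3.96-fold higher in siArp4+CK666 (log2 change 1.99 ± 0.17, adjusted p = 3.51e-29). Smarcd2 was 1.82-fold lower (log2 change -0.86 ± 0.16, adjusted p = 4.54e-07) and 1.78-fold lower (log2 change -0.83 ± 0.16, adjusted p = 9e-07). Smarcd3 was at 413, 914 and 579 in siControl, which spans the knockdown libraries, and its difference of -0.09 (95% interval -0.65 to 0.47) did not pass. Its exons share 48.2% of their bases with Chpf2 on the other strand, so its counts are uncertain.

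The siControl group itself stood apart for Smarcd1. With all 18 libraries on one scale, Smarcd1 was at 838, 832 and 912 in control, 788, 953 and 839 in CK666, 868, 865 and 834 in CytoD, 255, 374 and 296 in siControl, 1162, 1156 and 1061 in siArp4 alone and 1141, 1222 and 1292 with CK666 added. The siControl libraries stood apart from the other 15, with a mean 2.79-fold below that of untransfected control, whereas the siArp4 mean was 1.31 times that of control. Transfected and untransfected cells belong to separate experiments, so these levels are set side by side with no test, and how much of the difference belongs to the control siRNA cannot be told apart from the knockdown. For Smarcd2 the siControl mean lay above that of untransfected control, with common-scale means of 1168 in control, 1831 in siControl and 1022 in siArp4. The siControl mean of Smarcd2 was thus 1.57 times, and its siArp4 mean 0.875 times, that of control.

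Ss18 gave a different order of groups. On the common scale it was at 1927, 1812 and 1940.4 in control, 1503, 1224 and 1383 in siControl, 408, 397 and 342 in siArp4 alone and 370.4, 325 and 282 with CK666 added, and the 6 knockdown libraries lay below all 12 others. Within the second experiment it fell 3.65-fold in siArp4 (log2 change -1.87 ± 0.19, adjusted p = 2.11e-21) and 4.22-fold in siArp4+CK666 (log2 change -2.08 ± 0.19, adjusted p = 2.04e-26). Smarca2 was at 1527, 1164 and 1556 in siControl, 689.7, 769.9 and 678 in siArp4 alone and 755, 796 and 765 with CK666 added, 1.99-fold lower in siArp4 (log2 change -0.99 ± 0.17, adjusted p = 4.1e-08) and 1.83-fold lower in siArp4+CK666 (log2 change -0.88 ± 0.17, adjusted p = 1.25e-06). On the common scale its means were 1014 in control, 1426 in siControl and 731 in siArp4. All differences of Smarcd1, Smarcd2, Ss18 and Smarca2 from siControl passed in all 17 alternatives.

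**Figure D3:**
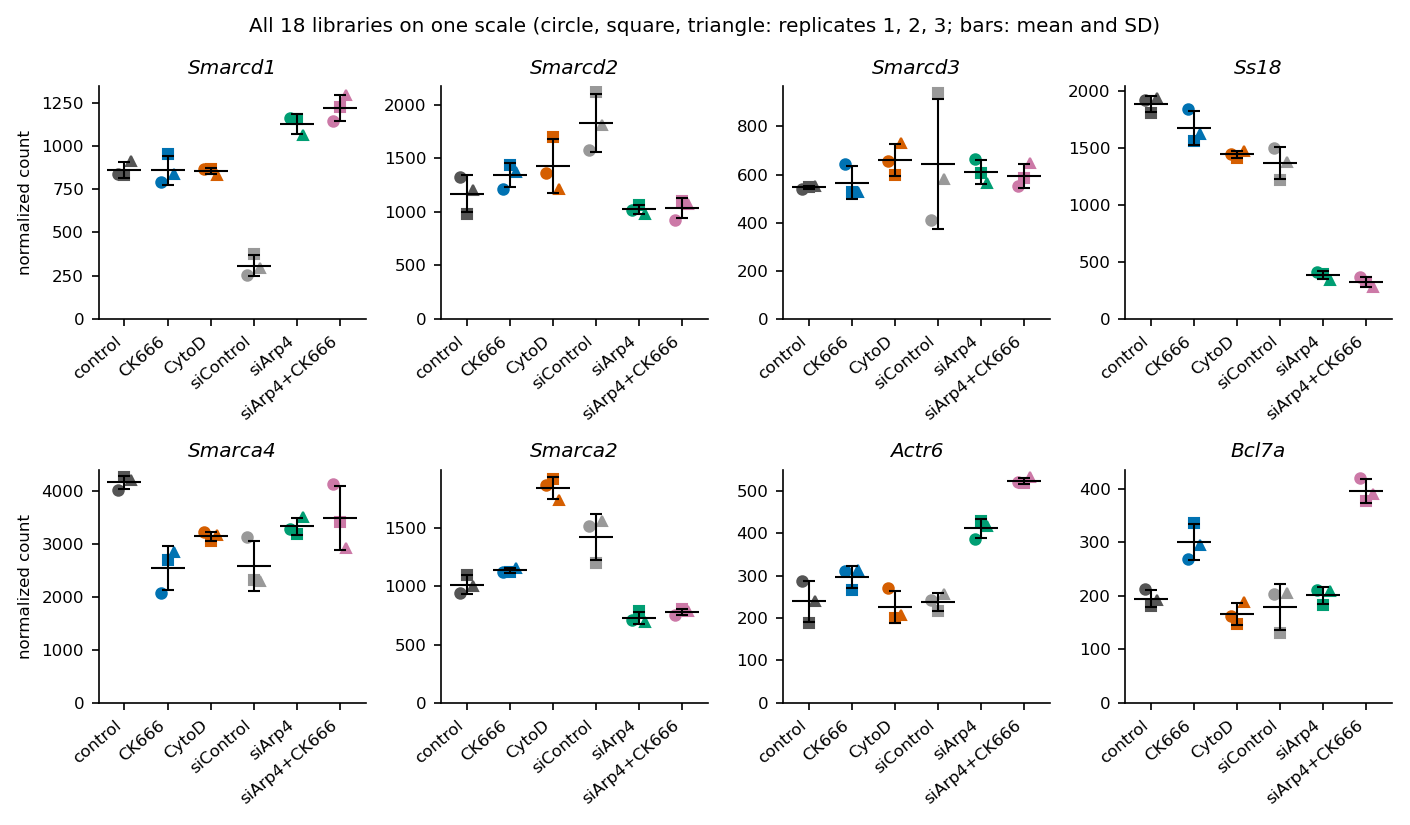
Normalized counts (vertical axes, from 0) of 8 subunit genes in all 18 libraries scaled together, with the mean and SD of each group as bars. For Smarcd1 the siControl libraries are the lowest of all, and for Ss18 the 6 knockdown libraries are.

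Actr6 (ENSMUSG00000019948.4, chr10:89711971-89732295, minus strand) encodes Arp6, the actin-related protein of SRCAP. It was at 244, 210.0 and 257 in siControl, 377, 419 and 408 in siArp4 alone and 523, 511 and 517 with CK666 added, with no overlap between any 2 groups. It rose 1.69-fold in siArp4 (log2 change 0.76 ± 0.15, adjusted p = 7.77e-06) and 2.18-fold in siArp4+CK666 (log2 change 1.12 ± 0.15, adjusted p = 2.67e-12), in all 17 alternatives. The step between the knockdown groups did not pass (log2 change 0.37 ± 0.15, adjusted p = 0.0784). On the common scale siControl (mean 239) and untransfected control (mean 239) were level. Epc1, a scaffold of TIP60, was at 434, 497 and 408 in siControl and 741, 819.6 and 560.1 in siArp4 (log2 change 0.66 ± 0.19, adjusted p = 0.00273), and it lost the call in 6 of 17 alternatives. Its exons share 7.2% of their bases with Gm28529 on the other strand.

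Combining siArp4 with CK666 gave 4 rises and 5 falls, 19.1% of the subunits, where 14.0% of 15415 genes rose and 15.8% fell (29.9% together). Smarcd1, Actr6, Ss18, Smarca2 and Smarcd2 differed from siControl in the same direction as in siArp4, which shares the siControl libraries. Additional rises were those of Bcl7a and of Arid1b, and additional falls those of Ino80c and Dpf1. Of the 9, 6 also passed the 2-fold condition, which 20.4% of all genes met (Smarcd1, Arid1b, Actr6 and Bcl7a higher, Ss18 and Dpf1 lower). Dpf1 is named after its values were seen, since its mean of 22.2 is below the level required for naming: it was at 28.5, 40.2 and 51.4 in siControl and 7.4, 11.4 and 11.6 in siArp4+CK666 (log2 change -1.98 ± 0.52, adjusted p = 0.000754).

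Bcl7a was at 204, 127 and 205 in siControl, 205, 178 and 204 in siArp4 alone and 423, 373 and 379 with CK666 added. The siArp4+CK666 libraries lay above the other 6, 2.18-fold over siControl (log2 change 1.12 ± 0.23, adjusted p = 6.65e-06). Arid1b, an ARID subunit of canonical BAF, was at 1212, 724 and 731 in siControl and 2614, 1807 and 1392 in siArp4+CK666 (log2 change 1.12 ± 0.30, adjusted p = 0.000815). Its long exons and the order of its libraries follow the length trend, with siArp4+CK666 replicate 1 highest and siControl replicates 2 and 3 lowest. With the trend removed its log2 fold change was 0.81 (adjusted p = 5.42e-06). The rise of Arid1b passed in 14 of 17 alternatives. It was lost with edgeR (adjusted p = 0.0121) and without siControl replicate 3 (0.0138) or siArp4+CK666 replicate 1 (0.0165). Its paralogue Arid1a was at 1337, 1048 and 824 in siControl and 2160.2, 1601 and 1478 in siArp4+CK666, with no overlap, and did not pass (log2 change 0.71 ± 0.24, adjusted p = 0.0101). Arid1a passed in 6 of 17 alternatives. Ino80c was at 936, 883 and 939 in siControl, 910.4, 829 and 964 in siArp4 alone and 668, 649 and 646 with CK666 added (log2 change -0.49 ± 0.13, adjusted p = 0.000478). The fall of Ino80c passed in 11 of 17 alternatives, and the log2 change over all 17 ran from -0.52 to -0.37. It was lost with total-count size factors (adjusted p = 0.0489), without the length trend (0.0769), with only the groups compared (0.0306) and without siControl replicate 3 (0.0134), siArp4+CK666 replicate 2 (0.0173) or siArp4+CK666 replicate 3 (0.0119).

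The number of subunits that passed here depended most on siControl replicate 1. Without it the count rose from 9 to 23, all 9 among them, and Ino80, Arid1a, Smarca4, Smarcc1, Ep400 and Srcap then passed. The count over all genes rose too. Without that library 2876 genes rose and 3013 fell of 14627 tested, and with it 2159 and 2443 of 15415. Without siControl replicate 3 the count was 6, and 1618 genes rose and 2022 fell of 14347 tested.

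**Figure D4:**
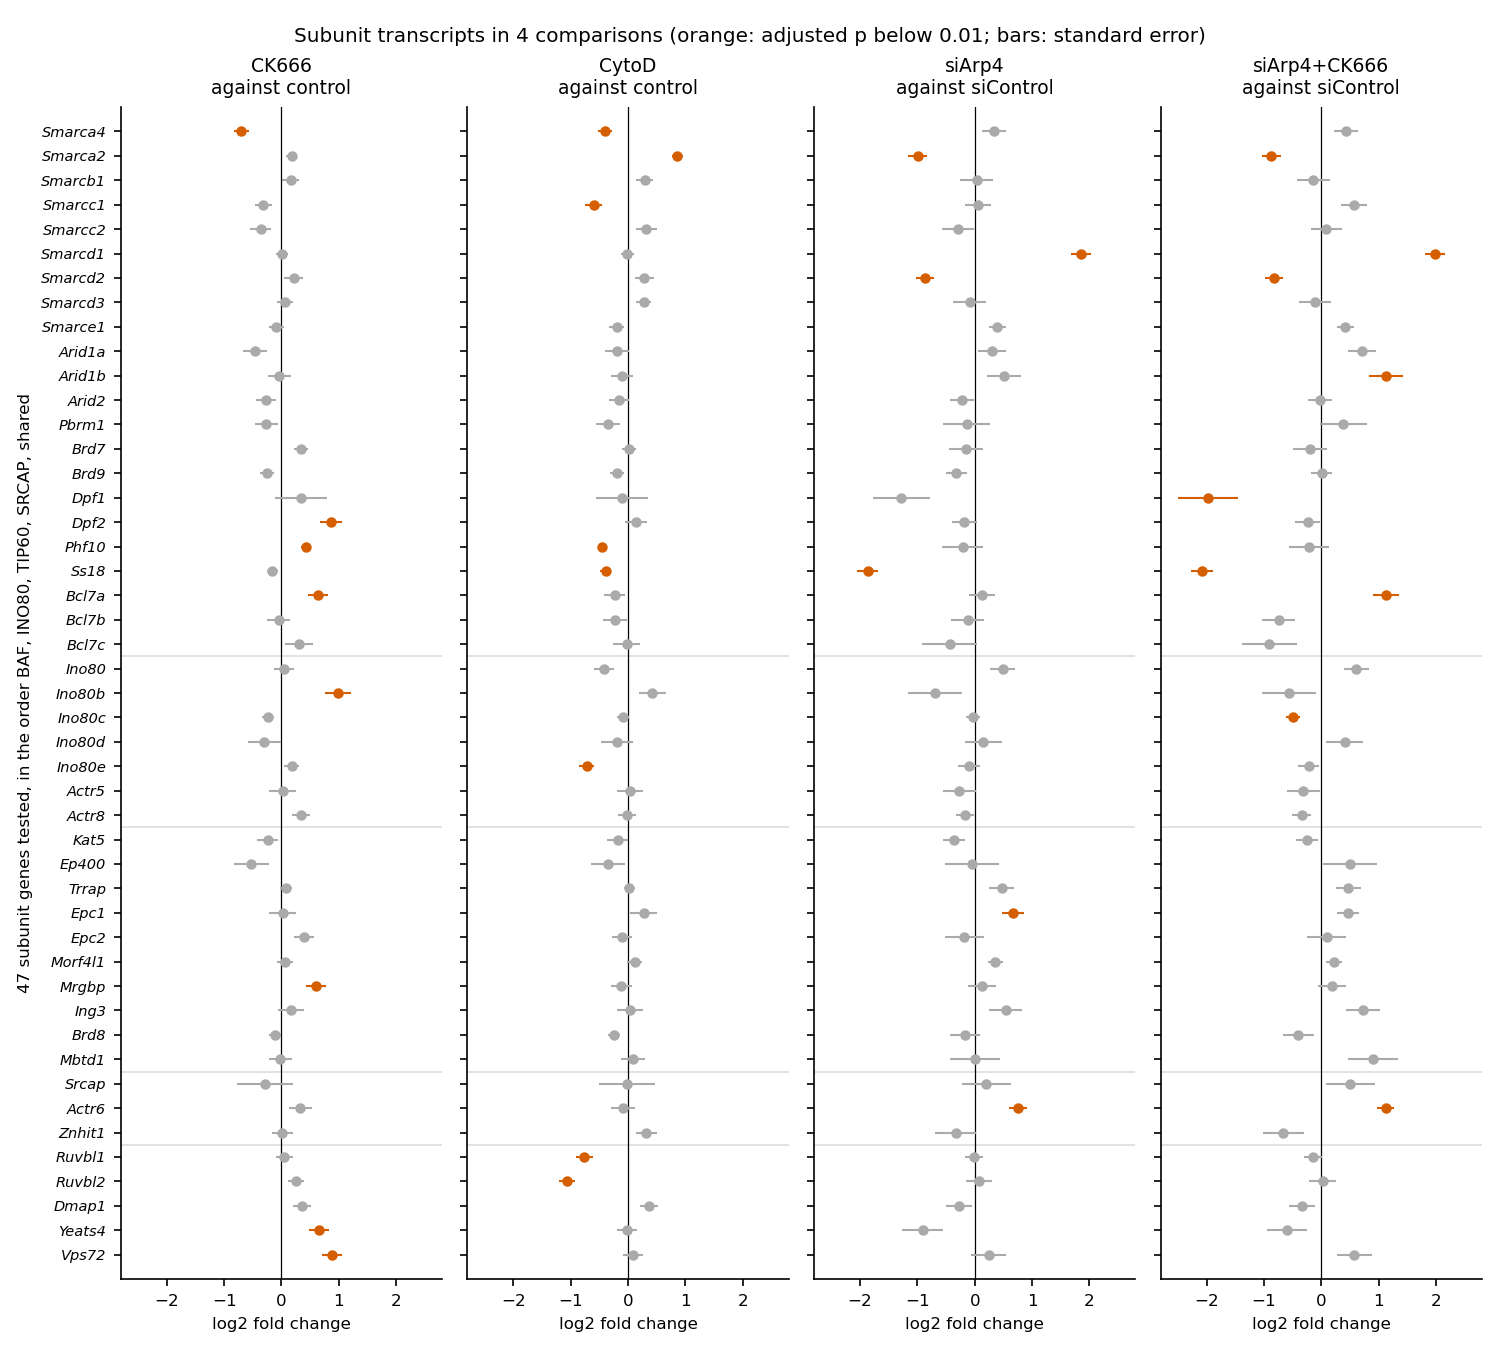
Log2 fold change (horizontal axes) with standard error for the 47 subunit genes tested in the 4 comparisons with a control, orange where the adjusted p is below 0.01. CK666 has 7 orange points to the right and 1 to the left, CytoD 1 and 7, siArp4 3 and 3, and siArp4+CK666 4 and 5.

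Adding CK666 to knockdown cells moved 2 subunits, 1 up and 1 down, 4.26% of the 47, where 3.82% of 14098 genes rose and 6.07% fell (9.9% together). Bcl7a rose over siArp4 (log2 change 0.998 ± 0.23, adjusted p = 0.000223), a call lost with total-count scaling, with edgeR and without siArp4 replicate 2 or siArp4+CK666 replicate 1 (adjusted p between 0.0111 and 0.0173). Ino80c fell (log2 change -0.46 ± 0.13, adjusted p = 0.00303) and passed in 6 of 17 alternatives. In DESeq2 fits without siArp4 replicate 2, or without siArp4+CK666 replicate 1, 0 subunits passed, while 3 and 2 had an unadjusted p below 0.05. With edgeR 0 passed and 5 had an unadjusted p below 0.05.

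The effect of CK666 was then compared between knockdown and untransfected cells. It differed for 1 of 47 subunits, 2.13%, against 3.76% of 13511 genes that were more positive and 4.06% more negative in knockdown cells (7.82% together). That subunit was Smarca4, whose CK666 effect was -0.70 in untransfected cells and 0.09 in knockdown cells, a difference of 0.78 (SE 0.22, adjusted p = 0.0067). In knockdown cells Smarca4 was at 3188, 3114 and 3424 without CK666 and 4139.6, 3354 and 2840.1 with it, so the groups overlapped. The difference passed in 5 of 18 alternatives, the removal of the length trend among them (0.67, adjusted p = 4.81e-05). Knockdown and transfection cannot be told apart in it.

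The motors Ino80, Ep400 and Srcap and the acetyltransferase Kat5 did not pass in any comparison with a control. Ino80, the motor of INO80, was at 877, 908 and 886 in control, 708, 1153 and 904 in CK666 and 732, 639.9 and 627 in CytoD, with CytoD below all control libraries (log2 change -0.42 ± 0.17, adjusted p = 0.0422). That difference passed in 3 of 17 alternatives: with only the groups compared (adjusted p = 0.000202) and without CK666 replicate 1 (0.00103) or CK666 replicate 2 (0.00539). In transfected cells it was at 694, 467 and 434 in siControl, 776, 684 and 782 in siArp4 alone and 873, 809 and 752 with CK666 added, the last group above every siControl library (log2 change 0.61 ± 0.22, adjusted p = 0.017). It passed in 4 of 17 alternatives, among them the fit with the length trend removed (0.48, adjusted p = 0.00523).

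Ep400, the motor of TIP60, ranged widely within groups, at 2128, 2542 and 2359.5 in control, 752, 2326 and 1797 in CK666 and 2265, 1689 and 1563 in CytoD. Transfected libraries held 1657, 551 and 545 in siControl and 888, 715 and 1056 in siArp4. Srcap, the motor of the complex named after it, was at 1684, 1965 and 1850.4 in control and 538, 2440.4 and 1546 in CK666, and at 658, 264 and 259 in siControl and 404, 462 and 491 in siArp4. The lowest and highest Srcap values of the CK666 group were replicates 1 and 2, the libraries with the strongest opposite length trends of that group. Intervals were correspondingly wide: the log2 fold change with CK666 was -0.53 (95% interval -1.12 to 0.07) for Ep400 and -0.28 (-1.23 to 0.67) for Srcap. On the common scale the siControl mean of Srcap was 0.222 times that of untransfected control. Srcap shares 61.7% of its exon bases with Gm42715 on the same strand, so its level is uncertain. Kat5, the acetyltransferase TIP60, was at 594, 748 and 715 in control and 659, 584 and 495 in CK666, and differed by -0.24 (95% interval -0.61 to 0.12), with 12.1% of its exon bases shared with Rnaseh2c on the other strand.

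Unlike Actr6, the actin-related proteins of INO80 did not pass in any comparison. Actr5 (Arp5) was at 261, 527 and 366 in siControl and 363, 307 and 287 in siArp4, a difference of -0.27 (95% interval -0.83 to 0.29). Actr8 (Arp8) was at 531, 589 and 648 in siControl and 539.8, 483 and 539 in siArp4, a difference of -0.18 (95% interval -0.49 to 0.13). Both genes overlapped between those groups. With CK666 added, Actr8 was at 508, 448 and 435, below every siControl library (log2 change -0.35 ± 0.16, adjusted p = 0.0687), and at -0.61 (adjusted p = 0.0106) without the length trend. In untransfected cells both genes overlapped between control and either treatment, where Actr5 was at 192, 280.4 and 196 in control and 276, 198 and 205 in CK666. Actr8 was at 411, 511 and 437 in control and 659, 493 and 561 in CK666.

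The remaining subunits are given by their range. Of the 47, 21 passed in at least 1 of the 4 comparisons with a control and 26 passed in none, with log2 fold changes from -0.91 (Bcl7c) to 0.90 (Mbtd1), both in siArp4+CK666. The 26 take in core BAF subunits such as Smarcb1 (SNF5), Smarce1 (BAF57), Arid2 and Pbrm1, of which the last 2 mark PBAF, and Brd9 of non-canonical BAF. They also take in 8 of the 10 TIP60 subunits, among them Trrap, its large scaffold, and Morf4l1, a chromodomain reader, and Znhit1 of SRCAP, with 28.4% of its exon bases shared with Plod3 on the other strand. Smarcb1 differed by 0.16 with CK666 (95% interval -0.13 to 0.45) and by 0.03 with siArp4 (-0.52 to 0.59). Trrap differed by 0.07 (-0.13 to 0.27) and 0.47 (0.03 to 0.90). Smarce1 came nearest to the threshold, in siArp4+CK666 (log2 change 0.42 ± 0.15, adjusted p = 0.0151), after Arid1a.

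Ratios of paralogues within a library are unaffected by its scaling. Per kilobase, the Smarca4/Smarca2 ratio was 9.4, 8.52 and 9.23 in control, 4.07, 5.27 and 5.39 in CK666 and 3.8, 3.5 and 4 in CytoD, so both treatments lay below control. It was 4.53, 4.27 and 3.25 in siControl, 10.2, 8.9 and 11.1 in siArp4 alone and 12.1, 9.27 and 8.17 with CK666 added, so both knockdown groups lay above siControl. The treated ratio was 0.539 times the control ratio with CK666, 0.416 times with CytoD, 2.52 times with siArp4 and 2.44 times with siArp4+CK666. Per kilobase, BRG1 transcripts were more abundant than BRM transcripts in every library. The level of such a ratio, though not its change between groups, depends on the annotated exon lengths.

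The Smarcd1/Smarcd2 ratio was 0.565, 0.756 and 0.677 in control and 0.145, 0.158 and 0.146 in siControl, and 1.02, 0.967 and 0.965 in siArp4, 6.57 times that of siControl. For Smarcc1/Smarcc2 it was 0.687, 0.683 and 0.613 in control and 0.342, 0.342 and 0.363 in CytoD, 0.528 times control. Ruvbl1/Ruvbl2 was 1.34, 1.45 and 1.24 in control and 1.67, 1.6 and 1.7 in CytoD, 1.23 times control. The groups did not overlap in any of these comparisons. An exact two-sided permutation test of 3 against 3 cannot give a p below 0.1, the value each of them reached, and over all 28 ratio tests the adjusted p was at least 0.165.

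**Figure D5:**
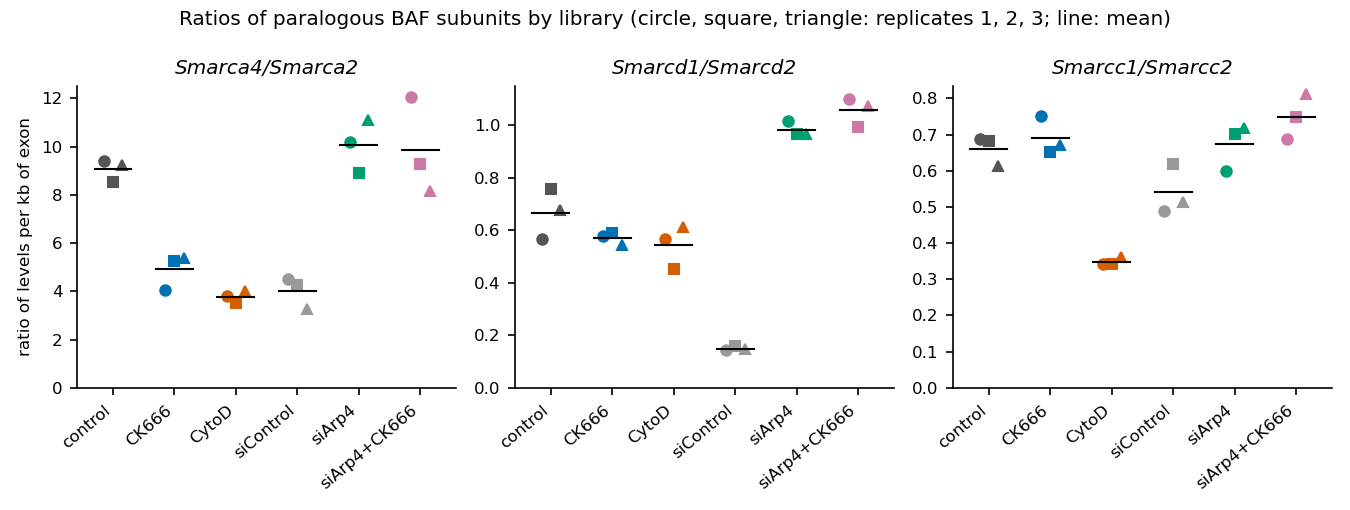
Ratio of levels per kb of exon (vertical axes, from 0) for 3 pairs of BAF paralogues in each of the 18 libraries, with a line at the mean of each group. CytoD libraries lie below all control libraries for Smarca4/Smarca2 and Smarcc1/Smarcc2, and siControl libraries lie lowest for Smarcd1/Smarcd2.

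Other subunits of the 4 complexes, 17 genes of which 14 could be tested, gave 1 rise and 2 falls with CK666, 1 and 4 with CytoD, 2 and 2 with siArp4, and 1 and 4 with siArp4+CK666. This list includes the siRNA target Actl6a, which is 1 of the falls with CytoD, siArp4 and siArp4+CK666. The passing shares were 21.4%, 35.7%, 28.6% and 35.7% in that order, and those of all genes 30.0%, 29.6%, 25.1% and 29.9%. Actb, β-actin, was lower with CK666 (log2 change -0.995 ± 0.09, adjusted p = 1.16e-25) and with CytoD (log2 change -0.42 ± 0.09, adjusted p = 3.84e-05). Uchl5, a deubiquitinase of INO80, was lower with CytoD (log2 change -1.04 ± 0.13, adjusted p = 2.5e-15). Mcrs1, an INO80 subunit, was lower in siArp4 (log2 change -1.27 ± 0.28, adjusted p = 4.37e-05), and Yy1, its DNA-binding partner, was higher (log2 change 0.57 ± 0.15, adjusted p = 0.000973). Actl6b, the neuronal paralogue of Arp4, had no count in any library.

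Remodelers that do not hold Arp4 (ISWI, CHD and NuRD proteins with Hells, Smarcad1 and Atrx, 26 genes) served as a comparison. With CK666 2 rose and 6 fell of 25 tested, with CytoD 1 rose and 8 fell of 24, with siArp4 3 rose and 1 fell of 25, and with siArp4+CK666 2 rose and 3 fell of 25. In either direction 32.0% of this list passed with CK666, 37.5% with CytoD and 16.0% with siArp4. The shares of all genes were 30.0%, 29.6% and 25.1% in that order. With siArp4+CK666 the share of this list lay below the 29.9% of all genes. Whether the lists differ from each other or from all genes was not tested. Hells, a replication-linked remodeler, fell with CK666 (log2 change -1.39 ± 0.13, adjusted p = 9.85e-25) and CytoD (log2 change -1.78 ± 0.13, adjusted p = 1.7e-39). Smarca5, the ISWI motor, fell with both as well (log2 changes -0.55 and -0.55), and Chd3 of NuRD fell with CK666 (log2 change -0.93 ± 0.14, adjusted p = 9.63e-11) and rose in siArp4 (log2 change 1.26 ± 0.21, adjusted p = 4.66e-08).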

How the data were processed

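RNA-seq was carried out on 18 libraries of mouse marrow MSC, 3 per group. The authors estimated transcript abundance with Salmon (1.2.1) on the GENCODE vM25 annotation of GRCm38 and deposited expected counts per gene; the way transcripts were summed to genes is not given in the sources used here. Libraries were unstranded. Counts were rounded to whole numbers. Symbols, positions and exon lengths came from GENCODE vM21, in which 54094 of 54347 identifiers matched.

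Tests were DESeq2 (1.42.0, R 4.3.3) Wald tests over all genes, the study's method, with the 9 libraries of an experiment fitted together by group and the effect of CK666 compared over all 18. A gene passed at a Benjamini-Hochberg adjusted p below 0.01. The study also asked for a change over 2-fold. Genes that DESeq2 set aside for low counts have no adjusted p and are not counted as tested. Alternatives were edgeR (4.0.16) quasi-likelihood tests, other size factors, a low-count filter, a replicate block, other sets of libraries, leaving out each library, and, added after seeing the data, removal of the length trend by a smooth curve per library. Levels of both experiments on one scale were also added after seeing the data. The fits were tested on simulated data.

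The subunits and gene lists were chosen with earlier results of these data known. Values per library are given for the motors and enzymes, the actin-related proteins, paralogue pairs, and up to 8 passing subunits with the largest change and a mean of at least 50 in each comparison with a control, up to 5 in other comparisons. Replicates are separate preparations of 1 cell line, so p-values measure the spread between these samples, which may be technical. Deviations of same-numbered control and CK666 libraries had correlations of 0.244, 0.179 and 0.104. That of control replicate 2 with CK666 replicate 3 was 0.102. The labels give only replicate numbers, and these correlations cannot show whether the libraries were paired. Totals of 18075610 to 24733212 counts limit precision for scarce transcripts such as Dpf1.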

Additional observations from a re-analysis of the deposited data

Results flagged for a closer look

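The effect of CK666 on Smarca4, the main BAF motor, differed between siArp4 and untransfected cells by a log2 value of 0.78 ± 0.22 (adjusted p = 0.0067 in the DESeq2 fit over 18 libraries). It was -0.70 in untransfected cells and 0.09 in knockdown cells. The result is listed because a test of the difference itself passed. The call held in 5 of 18 alternatives and was lost with TMM size factors (adjusted p = 0.0133), total-count size factors (0.0991), the replicate block (0.0154), edgeR (0.0379) and 9 of the 12 fits that left out 1 library.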

How the results depend on the processing

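Differences of Smarcd1, Ss18, Smarca2, Smarcd2 and Actr6 from siControl, of Smarca4, Dpf2 and Vps72 with CK666 and of Smarca2, Ruvbl1, Ruvbl2, Ino80e and Smarcc1 with CytoD passed in all 17 alternatives run for each. The length-trend fits and the common scale were chosen after seeing the data. Of 1931 values of single genes under an alternative, 1768 kept their direction and side of the threshold, 73 lost a call, 25 gained one and 65 changed sign. The cause was not tested for any count that moved, and the number of all genes that passed also differed between fits. With CK666, 8 subunits passed, 0 under the 2-fold rule and 4 in the fit over all 18 libraries, and 5 to 10 with 1 library left out (5 without control replicate 2). With CytoD, 8 passed, 1 under the 2-fold rule, 13 with only the groups compared in the fit, and 6 to 13 with 1 library left out (13 without CK666 replicate 1). With siArp4, 6 passed, 10 at an adjusted p below 0.05, 2 under the 2-fold rule, 10 in the fit over 18 libraries, and 5 to 9 with 1 library left out (9 without siControl replicate 1). With siArp4+CK666 against siControl, 9 passed, 16 at an adjusted p below 0.05, 14 over 18 libraries, and 6 to 23 with 1 library left out. Against siArp4, 2 passed, 0 under the 2-fold rule, 0 with total-count size factors (3 at an unadjusted p below 0.05), 0 with edgeR (5 unadjusted), 1 with the replicate block, 5 with only the groups compared, and 0 to 2 with 1 library left out. Between CK666 and CytoD, 11 passed, 17 at an adjusted p below 0.05, 1 under the 2-fold rule, and 10 to 19 with 1 library left out. The CK666 effect differed between experiments for 1 subunit, 4 at an adjusted p below 0.05, 0 under the 2-fold rule, 2 with the length trend removed, and 0 to 3 with 1 library left out. It differed for 0 with TMM size factors (9 unadjusted), the replicate block (7) or edgeR (7). Fits with the replicate number as a block gave 7 passing subunits with CK666, 8 with CytoD, 6 with siArp4 and 11 with siArp4+CK666. Between control and CK666 the block ended the call of Mrgbp alone (adjusted p = 0.0123). By their labels the samples share only a number. Outside control and CK666 the correlations of same-numbered libraries ran from -0.543 to 0.74. Total counts limit what can be seen of Dpf1 and Dpf3.

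Changes of sign were seen only in subunits that did not pass. With CK666, total-count size factors gave Arid1b 0.016, removing the length trend gave Arid1b 0.054, Ruvbl1 -0.099 and Smarcd1 -0.0082, and the fit over 18 libraries gave Smarcd1 -0.0013. With CytoD, total-count size factors gave Actr6 0.0015, Actr8 0.065, Smarcd1 0.075 and Srcap 0.068, and removing the length trend gave Actr8 0.068, Smarcd1 0.019 and Srcap 0.084. With siArp4, Ep400 was 0.17 with the replicate block, Ruvbl1 was 0.013 with total-count size factors, 0.17 without the length trend and 0.0083 over 18 libraries, and Smarcc1 was -0.019 with the length trend removed. With siArp4+CK666, Ruvbl1 was 0.12 with the length trend removed. Leaving out 1 library gave, with CK666, Actr5 -0.14 to 0.22, Arid1b -0.18 to 0.20, Epc1 -0.14 to 0.22, Ino80 -0.14 to 0.21, Ruvbl1 -0.11 to 0.18, Smarcd1 -0.059 to 0.072, Smarcd3 -0.037 to 0.12 and Srcap -0.81 to 0.12. The same with CytoD gave Actr5 -0.11 to 0.23, Actr6 -0.24 to 0.066, Actr8 -0.090 to 0.070, Epc2 -0.18 to 0.0022, Smarcd1 -0.041 to 0.026 and Srcap -0.079 to 0.031. With siArp4 it gave Actr5 -0.49 to 0.018, Ep400 -0.32 to 0.69, Epc2 -0.48 to 0.19, Ruvbl1 -0.12 to 0.035, Ruvbl2 -0.11 to 0.31, Smarcc1 -0.06 to 0.26, Smarcc2 -0.46 to 0.0041, Smarcd3 -0.32 to 0.26 and Srcap -0.036 to 0.79. With siArp4+CK666 it gave Epc2 -0.20 to 0.47, Ruvbl2 -0.16 to 0.26, Smarcc2 -0.080 to 0.39 and Smarcd3 -0.34 to 0.24.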

Other observations

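Several remodeler genes outside the 48 passed a comparison. Chd2, a CHD remodeler, rose with CK666 (log2 change 1.04 ± 0.20, adjusted p = 2.48e-06). Gatad2a of NuRD rose in siArp4 (log2 change 0.85 ± 0.10, adjusted p = 2.1e-16) and fell with CytoD (log2 change -0.65 ± 0.09, adjusted p = 2.41e-12), and Mbd3, which joins NuRD to its deacetylases, fell in siArp4+CK666 (log2 change -1.12 ± 0.27, adjusted p = 0.000171). Tfpt, an INO80 subunit, was higher with CK666 (log2 change 0.99 ± 0.30, adjusted p = 0.00308). It was at 116, 126 and 99.3 in control and 344, 155 and 179 in CK666. The highest value was that of CK666 replicate 1, a library with a strong length trend. These genes belong to lists chosen with earlier results of these data known.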
